A study of Mus musculus with 12 samples.

Results

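RelA binding 8 h after lipopolysaccharide (LPS) was set against binding at 3 h in bone-marrow-derived macrophages of littermate control mice. Libraries were chosen by title: littermate control RelA at 8 h LPS, littermate control RelA at 3 h LPS, and untreated wild-type input DNA, which served only to remove regions, 3 of the 12 samples of the series. All are from primary macrophages of the C57BL/6J background, and the RelA libraries were made with 1 rabbit polyclonal antibody. The labels give neither the alleles that littermate controls carry nor the number of animals behind a library. Each time has 1 library, so no difference between the times has a replicate check and no p-value is given. Libraries used for comparison were littermate RelA at 0 h, and wild-type RelA and wild-type Ikaros at 0, 3 and 8 h. The names of several files, those of littermate RelA at 8 and 3 h among them, carry another time beside the labelled one, and the labels were followed. Input of littermate cells was not analysed here.

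RelA is the main activating subunit of NF-kB. In resting macrophages it is held in the cytoplasm by IkB proteins. LPS acts through Toll-like receptor 4 to have those inhibitors degraded, and RelA then enters the nucleus and binds kB sites in promoters and enhancers of inflammatory genes. Among its targets are genes for new IkB proteins and other inhibitors, so that RelA leaves chromatin again and its occupancy changes with time. Ikaros, encoded by Ikzf1, is a zinc finger protein known mainly from lymphocytes that also acts in macrophages.

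What was measured is a list of hotspots, regions enriched in sequence tags, with the highest tag density in each. The scale of the density is not stated and the number of reads is unknown. After removal of regions overlapping input by at least 1 bp, the 8 h list held 5231 hotspots and the 3 h list 9999. Those of highest density 10 or more, called dense here, numbered 1026 at 8 h and 2091 at 3 h. The remaining weak hotspots numbered 4205 at 8 h and 7908 at 3 h. Regions are given by mm9 coordinates as deposited, those new at 8 h by their 8 h bounds and all others by their 3 h bounds. It is not stated whether starts count from 0 or 1. No gene was assigned, so the labelled cell type could not be checked against marker genes.

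RelA hotspots fell into a dense and a weak population at both times, with fewer at densities near 10. At 8 h, 2790 hotspots had a highest density under 5, 1415 lay from 5 to 10, 95 from 10 to 15, 200 from 15 to 20, 231 from 20 to 25, 415 from 25 to 50 and 85 at 50 or more. At 3 h the same classes held 6830, 1078, 681, 602, 293, 443 and 72 hotspots. The upper classes were thus about equally filled at both times, and the longer dense list at 3 h came mostly from densities of 10 to 20. The median dense hotspot had a highest density of 24.5 at 8 h and 17.6 at 3 h. Around the limit of 10, the nearest values were 9.71 and 10.1 at 8 h, and 9.94 and 10.1 at 3 h.

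**Figure D1:**
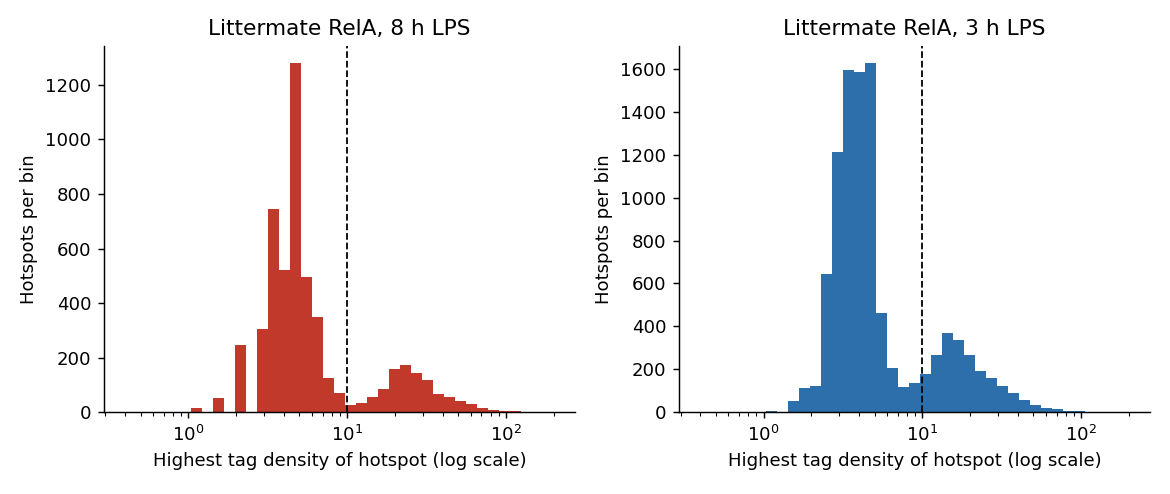
Histograms of the highest tag density of littermate RelA hotspots after removal of input regions, at 8 h (left) and 3 h (right); the density axis is logarithmic, the vertical axis counts hotspots per bin and has a different range in each panel, and the dashed line marks 10. Both lists show a weak and a dense population, and the dense population reaches lower densities at 3 h.

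With the density limit of 10 at both times, 40.8% of the dense 3 h regions were still listed as dense at 8 h, while the strongest mostly were. The dense 8 h list held 1026 hotspots against 2091 at 3 h, and most matches were 1 to 1. The lengths alone thus left little room for a kept share above 50%. Of the 2091 dense 3 h hotspots, 853 overlapped a dense 8 h hotspot (kept; 40.8%, exact Clopper-Pearson 95% interval 38.7 to 42.9), 12 overlapped only a weak one (weakened; 0.574%), and 1226 overlapped none (lost; 58.6%, 56.5 to 60.8). Absence from the dense 8 h list thus applied to 59.2% of dense 3 h hotspots, and absence from the full 8 h list to 85.6% of all 3 h hotspots. In the other direction, 853 of the 1026 dense 8 h hotspots were shared with the dense 3 h list (83.1%, 80.7 to 85.4), 33 met only a weak 3 h hotspot (strengthened; 3.22%), and 140 met none (new; 13.6%, 11.6 to 15.9). Absence from the dense 3 h list thus applied to 16.9% of dense 8 h hotspots, and absence from the full 3 h list to 72.4% of all 8 h hotspots. Intervals cover counting error over regions alone. A lost region is one that was not listed, and the lists do not separate it from one under the 8 h threshold.

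The lists were of unequal length, and these shares depended on where each was cut, so that the kept share lay above 50% under some limits. With the 1026 densest hotspots of each time, 63.3% of 8 h hotspots were in the 3 h list and 63.0% of 3 h hotspots in the 8 h list. Low densities were spaced 1.14 apart at 8 h and 0.486 apart at 3 h, so that a density of 10 was 8.77 spacings at 8 h and 20.6 at 3 h. With the 8 h limit raised to as many spacings as at 3 h, which is a density of 23.5, 94.7% of 8 h hotspots were in the dense 3 h list and 25.6% of 3 h hotspots were kept. A limit of 20 at both times gave 70.5% and 63.5%, a limit of 5 gave 39.8% and 30.6%, and lists of 1026 by z score gave 23.4% and 23.3%.

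Strength at 3 h set apart regions that were kept. Among quintiles of 3 h density, 12.7% (9.69 to 16.2) were kept in the weakest, from 10.1 to 13.3, then 20.7%, 31.6% and 50.0%, and 89.7% (86.4 to 92.5) in the strongest, from 27.5 up. The gradient was also present among 8 h hotspots, of which 56.2% (49.2 to 63.0) in the weakest quintile and 99.0% (96.5 to 99.9) in the strongest had been dense at 3 h. Lost regions had a median 3 h density of 15.3, with a highest of 53.1, against 25.6 for kept regions. Of the lost, 921 of 1226 (75.1%) had a 3 h density under 18.6, the 20th percentile of the dense 8 h list, and 237 of the 853 kept (27.8%) did. Few lost regions had a near match at 8 h, as 22 of 1226 lay within 500 bp of any 8 h hotspot and 38 within 1 kb. Wild-type RelA lists cut at the same density gave a similar gradient, from 8.72% (7.02 to 10.7) to 75.9% (73.0 to 78.6) of dense 3 h hotspots kept. Over all 4753 the share was 32.3% (31.0 to 33.7). The wild-type dense 8 h list held 1863 hotspots, so list length limited that share as well, and to another degree than in littermates. The difference between the series was not tested, as each has 1 library per time.

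**Figure D2:**
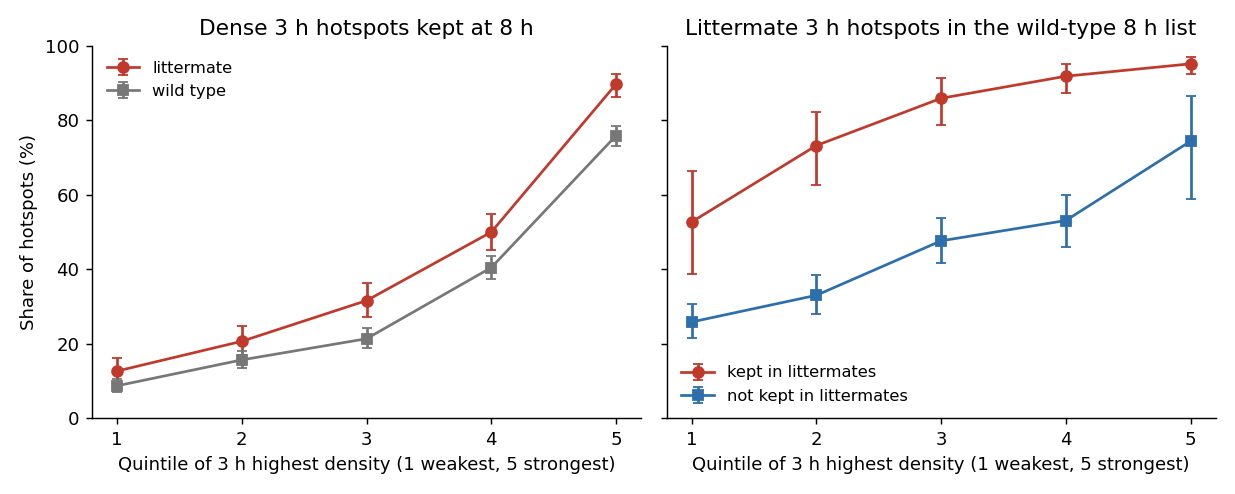
Left, share of dense 3 h RelA hotspots overlapping a dense 8 h hotspot in littermate and wild-type macrophages; right, share of dense littermate 3 h hotspots found in the wild-type 8 h list, for those kept and those not kept in littermates. The horizontal axis gives quintiles of 3 h highest density and bars are exact 95% intervals; kept regions lie above the others in every quintile of the right panel.

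The strongest kept regions were dense in both series. The densest region of either littermate list, on chromosome 17 at 13202688 to 13203528, had a highest density of 166 at 8 h and 132 at 3 h, and also 26.0 at 0 h. In wild-type cells it had a RelA density of 132 at 8 h and 164 at 3 h. A region on chromosome 10 at 37057769 to 37058835 had 108 at 8 h and 102 at 3 h, with 140 and 107 in wild type. Both of these were thus bound at each time and in each series. A second chromosome 17 region, at 18037496 to 18038329, had 134 at 8 h and 94.5 at 3 h, with 160 and 134 in wild type. A chromosome 9 region at 88847599 to 88848676 had 76.2 at 8 h and 92.9 at 3 h, with 52.4 and 59.5 in wild type. One on chromosome 19 at 6944995 to 6945926 had 83.2 at 8 h and 90.3 at 3 h, with 132 and 117 in wild type. The last 2 were not listed at 0 h in littermate or wild-type cells, while the first 3 were listed at 0 h in both. Ikaros was listed at all 5 in wild-type cells at both 8 and 3 h. Of all 576 kept regions with a 3 h density of 20 or more, it was listed at 91.5% at 8 h and 70.8% at 3 h.

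Among lost regions the densest had been strong at 3 h. A region on chromosome 12 at 120345960 to 120346726 had a density of 53.1 at 3 h and was not listed at 8 h, and in wild type it had 77.7 at 3 h and was not listed at 8 h. One on chromosome 5 at 92774209 to 92776359, a broad region, had 43.0 at 3 h, and in wild type 67.7 at 3 h only, while Ikaros there had 139 at 8 h and 330 at 3 h. A chromosome 9 region at 71035094 to 71035826 had 42.3 at 3 h, and in wild type 14.7 at 3 h only. These 3 were unlisted at 8 h in both series. The other 2 were still listed in wild type at 8 h. The region on chromosome 2 at 22636804 to 22637503 had 40.5 in littermates at 3 h, and 34.1 at 8 h and 31.5 at 3 h in wild type. The region on chromosome 12 at 120386047 to 120386944 had 40.2 in littermates at 3 h, and 28.0 at 8 h and 99.0 at 3 h in wild type.

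New regions were weaker than shared ones. Their median 8 h density was 19.1, against 26.2 for shared regions, 60 of the 140 had 20 or more (42.9%, 34.5 to 51.5), and the densest had 39.8. The densest lay on chromosome 19 at 29560932 to 29561555 with 39.8 at 8 h, and on chromosome 17 at 81324866 to 81325464 with 37.0. In wild type these had RelA densities of 18.1 and 27.0 at 8 h and were not listed at 3 h. They were thus first listed at 8 h in both series. Next were chromosome 1 at 173590423 to 173590972 with 34.6 and chromosome 4 at 55828564 to 55829161 with 33.6, which in wild type were listed at both times, at 41.3 and 24.8 at 8 h and 22.4 and 26.5 at 3 h. The region on chromosome 11 at 29853272 to 29853720 had 30.8 at 8 h and was in no wild-type list. Ikaros in wild-type cells was listed at none of the 5 at 3 h, and at 4 of them at 8 h, all but that on chromosome 11. Of all 20 new regions with an 8 h density of 25 to 40, where these 5 lay, it was listed at 6 at 3 h and at 14 at 8 h. The strengthened regions were weaker still, with a median 8 h density of 13.3.

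Loss in littermates coincided with loss in wild type at some regions, and about as many lost regions were listed there at both times. Of the 1226 lost regions, 480 were in the wild-type RelA list of 8 h (39.2%, 36.4 to 41.9), against 751 of the 853 kept (88.0%, 85.7 to 90.1). In the wild-type 3 h list, 871 of the lost (71.0%, 68.4 to 73.6) and 770 of the kept (90.3%, 88.1 to 92.2) were found. Thus 441 lost regions (36.0%) were listed in wild type at 3 h and not at 8 h, and 430 (35.1%) at both. For kept regions these counts were 48 (5.63%) and 722 (84.6%). Neither wild-type list held 305 of the lost (24.9%). At like strength the gap was still present: regions not kept had a lower share in the wild-type 8 h list than kept regions in every quintile of 3 h density, with intervals that did not overlap. In the weakest quintile the shares were 25.9% (21.5 to 30.6) of those not kept and 52.7% (38.8 to 66.3) of those kept. In the strongest they were 74.4% (58.8 to 86.5) and 95.2% (92.5 to 97.1). Width was not evened out, with a median of 489 bp for lost and 655 bp for kept regions. The share of lost regions in the wild-type 8 h list was 23.2% with a density limit of 5, 58.7% with 20, and 1.28% with lists of equal length by z score.

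Regions new in littermates were listed in wild-type cells more rarely than shared ones. Their share was about equal in the wild-type 8 h list and the longer 3 h list. Of the 140 new regions, 64 were in the wild-type 8 h list (45.7%, 37.3 to 54.3), against 750 of the 853 shared (87.9%, 85.5 to 90.0). In the wild-type 3 h list, 63 of the new (45.0%, 36.6 to 53.6) and 770 of the shared (90.3%, 88.1 to 92.2) were found. The wild-type list held 1878 hotspots at 8 h and 4972 at 3 h. Neither was held to the length of the other, so the like shares do not compare the times evenly. Both lists held 48 of the new regions, 16 were in the 8 h list alone, 15 in the 3 h list alone, and 61 in neither. New regions were also weaker and narrower, with a median of 389 bp against 548 bp for shared ones. Quintiles of 8 h density were compared in the wild-type 8 h list. Regions not shared had 28.3% (19.4 to 38.6) in the weakest and 69.0% (49.2 to 84.7) in the third. Shared regions had 72.0% (63.0 to 79.9) and 87.4% (81.7 to 91.9), so intervals overlapped in the third. The 2 strongest quintiles held only 9 and 2 regions not shared. The strengthened regions were in the wild-type lists at 30.3% (15.6 to 48.7) for 8 h and 39.4% (22.9 to 57.9) for 3 h. Under a reciprocal overlap of at least 50%, which also adds loosely overlapping regions to the new class, the share in the wild-type 3 h list was 24.9%. At a density limit of 5 it was 4.74%, and with lists of equal length by z score 0.862%.

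Ikaros, which belongs to the wild-type series, was listed more rarely at new regions than at kept ones. At 8 h, 74 of the 140 new regions (52.9%, 44.2 to 61.3) overlapped an Ikaros hotspot, against 735 of the 853 shared (86.2%, 83.7 to 88.4). At 3 h the counts were 32 of 140 (22.9%, 16.2 to 30.7) and 543 of 853 (63.7%, 60.3 to 66.9). New regions were also weaker, so both classes were set side by side in bands of 8 h density, where the new class had the lower share in each band. The bands did not even out width, with a median of 389 bp for new and 548 bp for shared regions. A wider region can meet another hotspot more easily. At 3 h Ikaros was listed at 13.5% (4.54 to 28.8) of new and 57.1% (39.4 to 73.7) of shared regions from 10 to 15, at 18.6% (8.39 to 33.4) and 53.3% (45.0 to 61.5) from 15 to 20, at 32.5% (18.6 to 49.1) and 58.2% (50.8 to 65.3) from 20 to 25, and at 30.0% (11.9 to 54.3) and 66.1% (60.6 to 71.4) from 25 to 40. At 8 h the shares were 24.3% (11.8 to 41.2) of new and 65.7% (47.8 to 80.9) of shared regions from 10 to 15, and from 15 up the intervals overlapped, with 58.1% and 75.3%, 65.0% and 83.1%, and 14 of 20 and 90.7% in those bands. The Ikaros list held 13796 hotspots at 8 h and 7109 at 3 h. With the 8 h list held to its 7109 densest, 33.6% (25.8 to 42.0) of new and 72.1% (69.0 to 75.1) of shared regions overlapped it, and under a reciprocal overlap of 50% with the full list, 27.3% of new regions did. At a limit of 5 the share of new regions was 5.64%, and by z score 1.72%.

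**Figure D3:**
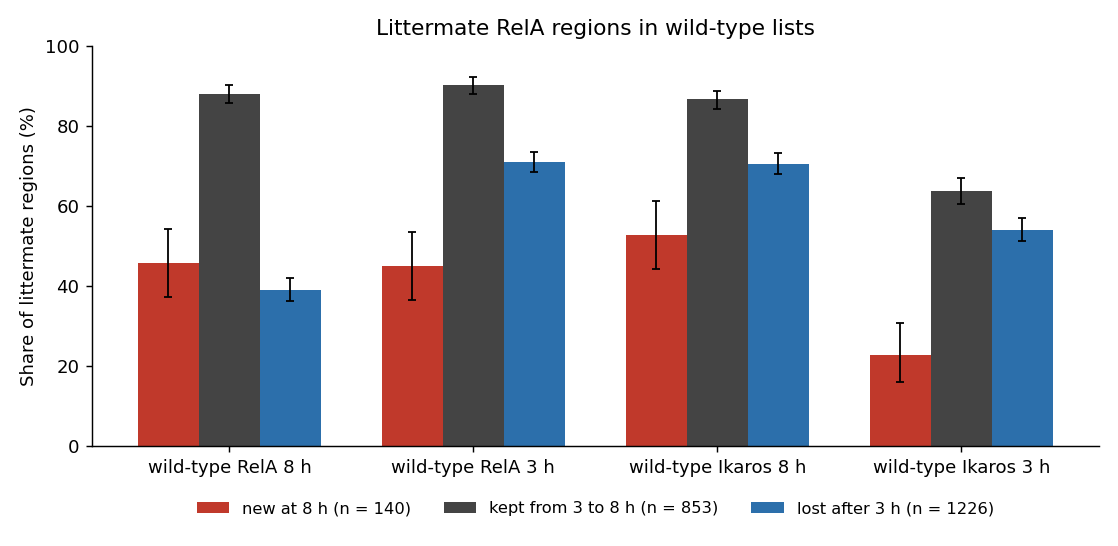
Share of dense littermate RelA regions found in each wild-type RelA and Ikaros list, for regions new at 8 h, kept from 3 to 8 h, and lost after 3 h; bars start at 0 and error bars are exact 95% intervals. Kept regions have the highest share in all 4 lists, and new regions have the lowest share in both Ikaros lists.

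Regions bound at both times kept much of their order of strength. Of the dense regions, 844 matched 1 to 1 between the times, and their densities had a Spearman rho of 0.67 across regions, which are not replicates and share the same 2 libraries. The median highest density was 26.1 at 8 h and 25.6 at 3 h, and the ratio of 8 h over 3 h had a median of 1.07, with quartiles of 0.888 and 1.36. Of the 100 densest matched regions at 8 h, 65 were among the 100 densest at 3 h. Of the 50 densest, 30 were shared in this way, and of the 10 densest, 3. Positions also held, as the centres lay a median of 29.2 bp apart and within 100 bp in 790 of 844. Hotspots were narrower at 8 h, with a median width of 548 bp, against 654 bp at 3 h, and were wider at 8 h in 163 of 844. The z score was higher at 8 h in 221 of 844 (26.2%), although the highest density was higher at 8 h in 506 (60.0%). 
A density ratio of 1.5 or more separated 136 of the 844 regions (16.1%) as denser at 8 h, and 64 (7.58%) as less dense at 8 h by as much. The scale of the density is not stated, and with the ratio divided by its median of 1.07 the counts were close, 94 (11.1%) and 88 (10.4%). The regions denser at 8 h had a median highest density of 29.6 at 8 h and 16.4 at 3 h, and those less dense had 21.3 and 37.6. A matched region had to reach 10 at both times, so that a region near 10 at 3 h could enter only if it was as dense or denser at 8 h, and one near 10 at 8 h only if it was as dense or denser at 3 h.

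The regions whose percentile within the dense list differed most between the times are described by their densities and their places among the 844, since percentiles in lists of unequal length show no change by themselves. A region on chromosome 9 at 99311447 to 99311994 had a density of 35.9 at 8 h and 12.1 at 3 h, and was 202nd of the matched regions at 8 h and 816th at 3 h. One on chromosome 12 at 74816790 to 74817207 had 45.5 and 13.9 (119th and 772nd). One on chromosome 8 at 128300700 to 128301151 had 45.0 and 14.7 (123rd and 752nd). These 3 were close to the lower limit at 3 h and well within the denser part of the matched regions at 8 h. The other rises in percentile were on chromosome 8 at 112109385 to 112109929, with 29.5 at 8 h and 11.6 at 3 h, and on chromosome 2 at 154399903 to 154400154, with 29.0 and 11.4. Ikaros was listed at none of the 5 at 3 h and at 2 of them at 8 h. Of all 104 matched regions with a 3 h density of 10 to 15, where these 5 lay, it was listed at 38.5% at 3 h and 69.2% at 8 h.

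The 5 regions with the largest drop in percentile were near the lower limit at 8 h. The first, on chromosome 16 at 15984146 to 15984901, had 14.2 at 8 h and 39.6 at 3 h (818th and 149th of the matched regions). Next were chromosome 4 at 63070200 to 63070939 with 15.9 and 38.5 (788th and 158th), and chromosome 11 at 81820121 to 81820815 with 16.2 and 38.0 (783rd and 162nd). Each of these was among the denser matched regions at 3 h and among the least dense at 8 h. The others were on chromosome 5 at 68034558 to 68035334, with 15.2 at 8 h and 31.8 at 3 h, and on chromosome 13 at 98280541 to 98281178, with 14.5 and 29.7. Ikaros was listed at 4 of the 5 at 3 h and at all 5 at 8 h. All but that on chromosome 13 had a 3 h density of 30 or more. Of all 305 matched regions that dense at 3 h, Ikaros was listed at 78.4% at 3 h and 93.1% at 8 h. The counts for rises and drops thus differ in 3 h density as well as in direction. By place among the 844, the regions on chromosome 8 at 112109385, on chromosome 2 and on chromosome 13 were not among the 5 largest moves of their direction, and the other 7 were. A region on chromosome 10 at 119628059 to 119628838, named after its values were seen, had a density of 131 at 8 h, 3.04 times its density of 43.1 at 3 h, and was the 3rd densest matched region at 8 h and the 118th at 3 h. In wild type it had 85.5 at 8 h and 48.7 at 3 h.

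**Figure D4:**
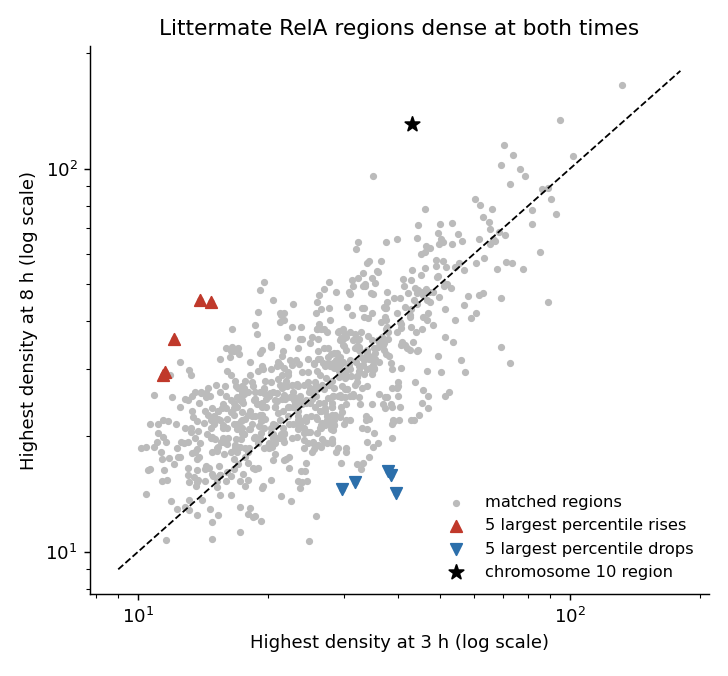
Highest tag density at 8 h against 3 h for the 844 littermate RelA regions matched 1 to 1, both axes logarithmic; the dashed line marks equal density. Upward triangles are the 5 largest rises in percentile within the dense lists, which differ in length, downward triangles the 5 largest drops, and the star is the chromosome 10 region with 131 at 8 h and 43.1 at 3 h.

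The wild-type libraries, which played no part in choosing these regions, showed part of the same moves. Of the 5 rises, 4 were denser at 8 h in wild type, with densities of 32.8 at 8 h and 13.5 at 3 h for that on chromosome 9, 26.0 and 15.9 on chromosome 12, 38.4 and 28.8 on chromosome 8 at 128300700, and 24.2 and 16.9 on chromosome 2. Of the 5 drops, 4 were less dense at 8 h in wild type, with 26.3 and 50.4 on chromosome 16, 44.3 and 66.7 on chromosome 4, 49.3 and 75.3 on chromosome 11, and 45.7 and 61.7 on chromosome 13. The others, on chromosome 8 at 112109385 and on chromosome 5, went the opposite way. Over all matched regions, 713 of 844 were in both wild-type lists, and the log2 ratios of the series had a Spearman rho of 0.22 across those 713. The 99 of them that were 1.5-fold denser at 8 h in littermates had a median wild-type ratio of 1.14, and 21 passed 1.5 there (21.2%). The 50 that were less dense by as much had a median wild-type ratio of 0.804, and 14 were 1.5-fold less dense there (28.0%). Over all 713, 99 (13.9%) passed 1.5-fold denser and 82 (11.5%) less dense in wild type, with a median ratio of 1.02. The wild-type ratio was above 1 in 64 of the 99 regions denser in littermates and in 19 of the 50 less dense. It was above 1 in 294 of the other 564, so like direction at a named region is weak evidence by itself.

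**Figure D5:**
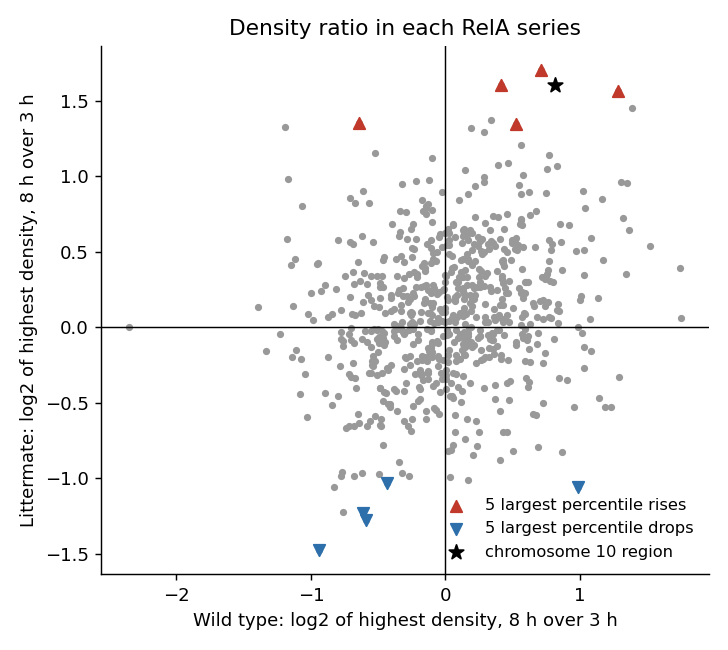
Log2 of the highest density at 8 h over 3 h in littermates (vertical) against wild type (horizontal) for the 713 matched regions listed in all 4 RelA libraries; lines mark equal density. Of the 10 largest percentile moves, 8 lie in the quadrants of like direction, while the Spearman rho over all 713 is 0.22.

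Ikaros at 3 h was listed more rarely where RelA was denser at 8 h. It overlapped 58 of the 136 such regions (42.6%, 34.2 to 51.4), against 49 of the 64 less dense ones (76.6%, 64.3 to 86.2) and 429 of the other 644 (66.6%, 62.8 to 70.3). In the longer 8 h list the shares were 83.1% (75.7 to 89.0), 82.8% (71.3 to 91.1) and 87.6% (84.8 to 90.0), and with that list held to its 7109 densest they were 62.5% (53.8 to 70.6), 71.9% (59.2 to 82.4) and 73.9% (70.3 to 77.3). Ikaros at 3 h also went with RelA density at 3 h, from 38.5% (29.1 to 48.5) of matched regions at 10 to 15 to 78.4% (73.3 to 82.9) at 30 or more, and the part of density in the difference was not tested. In bands of 3 h density, Ikaros at 3 h overlapped 36.4% (23.8 to 50.4) of denser and 40.8% (27.0 to 55.8) of other regions from 10 to 15, and 46.2% (30.1 to 62.8) and 58.6% (49.6 to 67.2) from 15 to 20. From 20 to 30 it overlapped 30.4% (13.2 to 52.9) of denser, 83.3% (51.6 to 97.9) of less dense and 63.5% (56.9 to 69.7) of other regions, and at 30 or more 68.4% (43.4 to 87.4), 77.6% (63.4 to 88.2) and 79.3% (73.6 to 84.3). Denser and other regions thus had overlapping intervals in each band but that from 20 to 30, which held 23 denser and 12 less dense regions.

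Weak hotspots recurred at the other time more rarely than dense ones. Of the 4205 at 8 h, 558 were in the full 3 h list (13.3%, 12.3 to 14.3), and of the 7908 at 3 h, 574 were in the full 8 h list (7.26%, 6.70 to 7.85). Nearly all of these matches were between weak hotspots, 543 and 541. The wild-type RelA lists themselves held few weak hotspots, 15 of 1878 at 8 h and 219 of 4972 at 3 h. Weak littermate hotspots were looked up in the full wild-type lists, where a hotspot of any density could match. The wild-type RelA lists held 3 of the 4205 weak 8 h hotspots at 8 h and 87 of the 7908 weak 3 h hotspots at 3 h (1.10%, 0.882 to 1.36), and Ikaros lists held under 1% of the weak hotspots of either time. Why so few were found was not tested. A minimum width of 251 bp was met by 48.0% of weak hotspots at 8 h and 26.8% at 3 h, against 3.70% and 1.20% of dense ones. The X chromosome held 9.20% (8.35 to 10.1) of weak hotspots at 8 h and 9.46% (8.82 to 10.1) at 3 h, against 2.92% (1.98 to 4.15) and 2.53% (1.90 to 3.30) of dense ones. Weak hotspots found at both times were on X about as often, at 10.1% (7.72 to 13.0) of the 543 and 10.2% (7.75 to 13.0) of the 541. Of the 543, 78 were also listed at 0 h (14.4%, 11.5 to 17.6), against 340 of the 3662 not found at 3 h (9.28%, 8.36 to 10.3). The z score told the populations apart poorly, with medians of 15.4 for dense and 12.5 for weak hotspots at 8 h, and 14.7 and 14.4 at 3 h.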

How the data were processed

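Per the labels' protocols, immunoprecipitated macrophage chromatin was sequenced from 1 end. The submitters' processing notes name mm9 and CASAVA. Which aligner and hotspot caller were run, and with what threshold, is not given in the sources used here. The authors deposited a highest and a mean tag density per hotspot (a signal of unstated scale), a z score and its p-value, per the file headers. The deposited p-values were not used further. Depth is unknown, and every list holds only regions past a threshold, with a lowest z score of 10.5 at 8 h and 8.64 at 3 h.

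Hotspots sharing at least 1 bp with a wild-type input hotspot were taken out (57 at 8 h, 131 at 3 h). Overlaps of 1 bp or more counted as shared, and a region found in another list took the density of the densest overlapping hotspot. Intervals are exact Clopper-Pearson 95% intervals. The spacing of low densities was sought, before input removal, among the commonest densities divided by whole numbers. The value taken had the largest share of densities on its whole multiples above that of random values, with near ties going to the larger spacing. Named regions, not on chromosome 18, were the 5 densest kept, lost and new regions and the 5 largest percentile moves each way among matched regions. The only gene table at hand is of GRCm38.p6, so the planned nearest genes, gene lists and marker genes were not run and no sequence is printed. Regions and comparisons were chosen with earlier results of these data known. Alternatives covered overlap, input removal, density limit, list length and rank measure. Python 3.11.15, numpy 2.4.6, pandas 2.3.3, scipy 1.17.1 and matplotlib 3.10.9 were used, and the overlap code was tested on simulated data against bedtools 2.31.1.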

Additional observations from a re-analysis of the deposited data

Results flagged for a closer look

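Among the 10 regions with the largest percentile moves within the dense lists, which differ in length, 2 moved one way in littermates and the opposite way in wild-type cells, and with 1 library per time and series the difference was not tested. The region on chromosome 8 at 112109385 to 112109929 had an 8 h over 3 h density ratio of 2.55 in littermates (29.5 at 8 h and 11.6 at 3 h) and 0.642 in wild type (17.5 at 8 h and 27.2 at 3 h). The region on chromosome 5 at 68034558 to 68035334 had a ratio of 0.479 in littermates (15.2 at 8 h and 31.8 at 3 h) and 1.98 in wild type (35.3 at 8 h and 17.8 at 3 h). By place among the matched regions, that on chromosome 8 was not among the 5 largest rises.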

How the results depend on the processing

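No test is attached to these values. A share counts as moved when it left the main 95% interval, a number of hotspots when it changed by over 1.5 times, and a rho when it changed by over 0.1. Of 85 alternative values for 12 results, 42 met these bounds and 43 moved. The kept share passed 50% with a limit of 20 and with equal length by density. The rho of matched regions stayed within 0.1 under every alternative run. Shares below come in the order 8 h in 3 h, 3 h kept at 8 h, weak 3 h found at 8 h, kept, then lost, in wild-type RelA 8 h, new in wild-type RelA 3 h, and new in Ikaros 8 h, leaving out those that did not move. A reciprocal overlap of 50% gave 77.1%, 37.8%, 4.82%, 24.9% (new in RelA) and 27.3% (new in Ikaros). Centres within 200 bp gave 5.98% for weak hotspots and 43.1% for new in Ikaros. No input removal gave 85.2% of kept in wild type. A limit of 5 gave 2441 hotspots at 8 h and 3169 at 3 h, and 39.8%, 30.6%, 6.47%, 78.7%, 23.2%, 4.74% and 5.64%. A limit of 20 gave 808 hotspots at 3 h, and 70.5%, 63.5%, 9.37%, 95.3%, 58.7%, 56.7% and 66.7%. Equal spacings gave 564 hotspots at 8 h, and 94.7%, 25.6%, 95.1% (kept in wild type) and 72.4% (new in Ikaros). Equal length by density gave 1026 hotspots at 3 h, and 63.3%, 63.0%, 93.7% (kept) and 54.9% (lost). Equal length by z score gave 1026 at 3 h, and 23.4%, 23.3%, 1.28% (lost), 0.862% and 1.72% (new). Ranking by z score brought in weak hotspots, since density and z score had a rho of 0.44 at 8 h and 0.088 at 3 h over the full lists. Searching the full list gave 86.4% for 8 h in 3 h. Holding the Ikaros 8 h list to the length of the 3 h list, chosen after the data were seen, gave 33.6% of new regions. The 10 percentile moves kept their sign in 30 of 30 alternatives (mean density, z score, or place among matched regions alone), also chosen afterwards. These regions were picked as the largest moves, and the alternatives rank the same hotspots of the same 2 libraries. A change of sign was thus unlikely from the start, and the count is no check on the moves. No paired analysis was possible because every time of every series is a lone library. For the same reason no library was left out in turn. With the ratio divided by its median, also added afterwards, 94 regions were denser and 88 less dense. Depth is unknown, so absence from a list is absence above that library's threshold.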

Other observations

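Dense regions often lay close together. Of the 2091 dense 3 h regions, 1023 (48.9%, 46.8 to 51.1) had another within 50 kb. Those with such a neighbour were kept at 8 h in 48.3% (43.7 to 52.9) of 474 cases where the nearest neighbour was kept and 43.0% (38.8 to 47.2) of 549 where it was not, while 36.3% (33.4 to 39.3) of the 1068 without a neighbour were kept. With a 3 h density of 20 or more, the shares beside a kept and a not kept neighbour were 74.3% (67.9 to 80.0) and 70.5% (64.3 to 76.1), and with a lower density 26.9% (21.6 to 32.8) and 21.0% (16.5 to 26.0), so in both bands the intervals overlapped. Regions that are each other's nearest neighbour were counted from both sides, so the cases are not independent and these intervals are too narrow. These values were chosen after the data were seen and have no test.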
